A study of Mus musculus with 12 samples.

Results

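Actin regulators are the proteins that lengthen, branch, cut, bundle and anchor actin filaments. Here they were 10 genes chosen by name: Enah, Vasp, Evl, Tpm1, Arpc5, Rhoa, Ezr, Myh9, Actn4 and Cfl1. Every array probe set annotated to exactly 1 of these genes was taken, which gave 30 probe sets of the 45037 measured. Of these, 27 had a mean of 100 or more across the arrays and were tested, among 27808 tested probe sets in all. Signals are microarray intensities rescaled so that each array has a 2% trimmed mean of 500. A trimmed mean leaves out the brightest and dimmest 2% of values.

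The RNA came from mouse blastocysts, the embryos that have an outer trophectoderm around an inner cell mass and a fluid cavity. Per the labels, 4 arrays held normal control blastocysts, 4 held blastocysts that had received 20 Ca2+ pulses, and 4 held blastocysts cultured in Ca2+ free medium. The study's title refers to Ca2+ oscillations in the fertilised egg, the repeated rises of the ion that start development, so the comparisons ask whether mRNA levels in the blastocyst differed after that signal was changed. Strain, embryo stage in hours, number of embryos in a sample, form of a pulse and time without Ca2+ are not stated in the labels. Nor is it stated whether arrays of 1 group came from separately collected embryos. P-values therefore reflect the spread between arrays, which may be technical. In RNA of whole embryos, a lower level of an mRNA per cell cannot be told apart from fewer cells that make it.

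Actin monomers add mainly at the barbed end of a filament. Ena/VASP proteins (Enah, Vasp, Evl) stay at that end and keep it growing, the Arp2/3 complex starts side branches, and cofilin (Cfl1) cuts old filaments. Tropomyosin (Tpm1) lies along the filament, alpha-actinin (Actn4) crosslinks it, myosin II (Myh9) pulls on it, and ezrin (Ezr) ties it to the membrane. RhoA switches formins and myosin on. In the preimplantation embryo this cortical actin is known for its part in compaction, in the apical surface of the outer cells and in cavity formation.

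Promoter windows of 3 members are shown because their changes are the ones the results turn on. Some probe sets of Enah and Tpm1 had higher signal in Ca-free medium, and Actn4 had lower. Each window holds the 250 bases before the RefSeq gene start in GRCm38.p6, written 5′ to 3′ along the gene. Capitals mark a GC box (GGGCGG on either strand) or a CCAAT box (CCAAT on either strand), and overlapping GC boxes run together.
Enah, chr1:182019981-182020230, minus strand: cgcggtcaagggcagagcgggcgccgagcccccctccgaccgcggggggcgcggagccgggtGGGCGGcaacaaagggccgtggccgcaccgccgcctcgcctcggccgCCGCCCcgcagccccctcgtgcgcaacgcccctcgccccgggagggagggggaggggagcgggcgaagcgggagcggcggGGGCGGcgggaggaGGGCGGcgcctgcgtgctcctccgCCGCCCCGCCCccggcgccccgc
Tpm1, chr9:67049214-67049463, minus strand: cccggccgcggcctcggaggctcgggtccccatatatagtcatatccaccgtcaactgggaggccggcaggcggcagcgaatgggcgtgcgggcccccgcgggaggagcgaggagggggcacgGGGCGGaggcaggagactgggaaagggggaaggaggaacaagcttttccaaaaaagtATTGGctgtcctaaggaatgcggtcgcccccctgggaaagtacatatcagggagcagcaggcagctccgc
Actn4, chr7:28962333-28962582, minus strand: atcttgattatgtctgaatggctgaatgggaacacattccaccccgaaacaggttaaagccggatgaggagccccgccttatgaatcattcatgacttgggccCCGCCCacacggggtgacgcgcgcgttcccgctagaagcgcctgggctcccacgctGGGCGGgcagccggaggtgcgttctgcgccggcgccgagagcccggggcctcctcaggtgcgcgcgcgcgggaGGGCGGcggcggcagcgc

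The Enah window held 6 GC boxes and 84.8% G and C, the Actn4 window 3 and 67.6%, and the Tpm1 window 1 and 65.2%. The Tpm1 window also held 1 CCAAT box. All 10 genes had a window, and Rhoa and Evl had a pair each, which makes 12. A GC box was in 8 of the 12, against 32.7% of 32851 RefSeq windows of the same length. The median of all those windows was 52.4% G and C, lower than in each of the 3 shown. The part of base content in the count of GC boxes was not tested. A CCAAT box was in 4 of the 12 (33.8% of all windows) and TATAAA, on either strand, in 1 of the 12 (12.4%). The CArG box, the motif of serum response factor, was in 0 of the 12 and in 1.47% of all windows. Such matches describe the letters of a window and not a bound site. The arrays did not measure these windows.

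Values of the whole series that touch the members come first. Log2 changes are differences of log2(signal + 32) fitted with limma over all 12 arrays, and a probe set is called at a Benjamini-Hochberg adjusted p under 0.05 over all 27808. In Ca-free medium against control, 40.3% of probe sets were called, 10.6% higher and 29.7% lower. Their median change was -0.18, and it moved to -0.021 with quantile normalization, 0.19 with arrays scaled to their median and -0.36 with arrays scaled to 9 hybridization control probe sets. The calls moved from 2944 higher and 8249 lower to 2723 and 2774, to 10232 and 1538, and to 772 and 13655 in that order. The side of zero on which a small change lies therefore depends on the scaling, and for changes called against control the text says under which scalings the call ended. After 20 pulses, 1.48% of probe sets were called against control.

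Control arrays 3 and 4 differed from controls 1 and 2. The Actb ratio, 3′ signal over 5′ signal and a measure of how far labelling reached along an mRNA, was 1.59 and 1.67 in controls 1 and 2 but 2.69 and 2.64 in controls 3 and 4. The Actb ratio was 1.49 to 1.69 after 20 pulses and 1.69 to 1.88 in Ca-free medium (exact two-sided permutation test over arrays of Ca-free medium against control, p = 0.429, where 0.0286 is the smallest p possible). All 15 blastocyst markers, among them Cdx2, Nanog and Gata4, passed the signal minimum, and their summed signal ranged from 64951 to 68539 over the arrays. Of 10 muscle and fibroblast markers, cells rich in actin and tropomyosin, 6 passed the minimum. Their summed signal was 2638 to 2879 in control, 2052 to 2689 after 20 pulses and 1637 to 2057 in Ca-free medium. Against control, 5 of the 6 were called lower in Ca-free medium, where 29.7% of all probe sets were. Acta2 alone read 602 to 1277 over the arrays, and Myh11, Myog, Lum and Tnnt2 stayed under the minimum. Oviduct and uterus markers (6 of 8 over the minimum) summed to 1392 to 1559, 1125 to 1425 and 747 to 942 in that order, and cumulus and granulosa markers (2 of 7) to 1020 to 1111, 764 to 1048 and 618 to 678. Blood markers (3 of 5) summed to 613 to 895, 760.3 to 910.2 and 542 to 582. In Ca-free medium against control, 5 oviduct and uterus, 2 cumulus and granulosa and 0 blood markers were called lower by limma, and 0 higher. Of the blastocyst markers, 2 were called higher and 2 lower. Tested probe sets with a mean signal of 100 to 323 had median changes of -0.39 to -0.34 in bins of like signal. The part of these markers in the results below was not tested.

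Ca-free medium against control gave calls in both directions among the actin regulators. Ranked by the most changed called probe set of a gene, Enah had the largest increase, followed by Myh9 and Tpm1. Increases in Arpc5 and Rhoa were smaller. The brightest probe sets of Enah and Myh9 changed by only 0.14 and 0.068, and that of Myh9 was not called. Actn4, Vasp, Evl and 1 further probe set of Tpm1 had lower signal, and neither probe set of Ezr or Cfl1 was called. Of 27 tested probe sets, 8 were called higher and 5 lower, 48.1% in all against 40.3% of all probe sets. The 8 higher calls stood against a background of 10.6% and the 5 lower calls against 29.7%. The members' median change was 0.10, over a range of -0.70 to 2.20, beside -0.18 for all probe sets. Every Ca-free array lay above every control array in 7 of the 27 (9.23% of all probe sets) and below in 4 (27%), 11 of the 27 in all beside 36.2%.

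**Figure D1:**
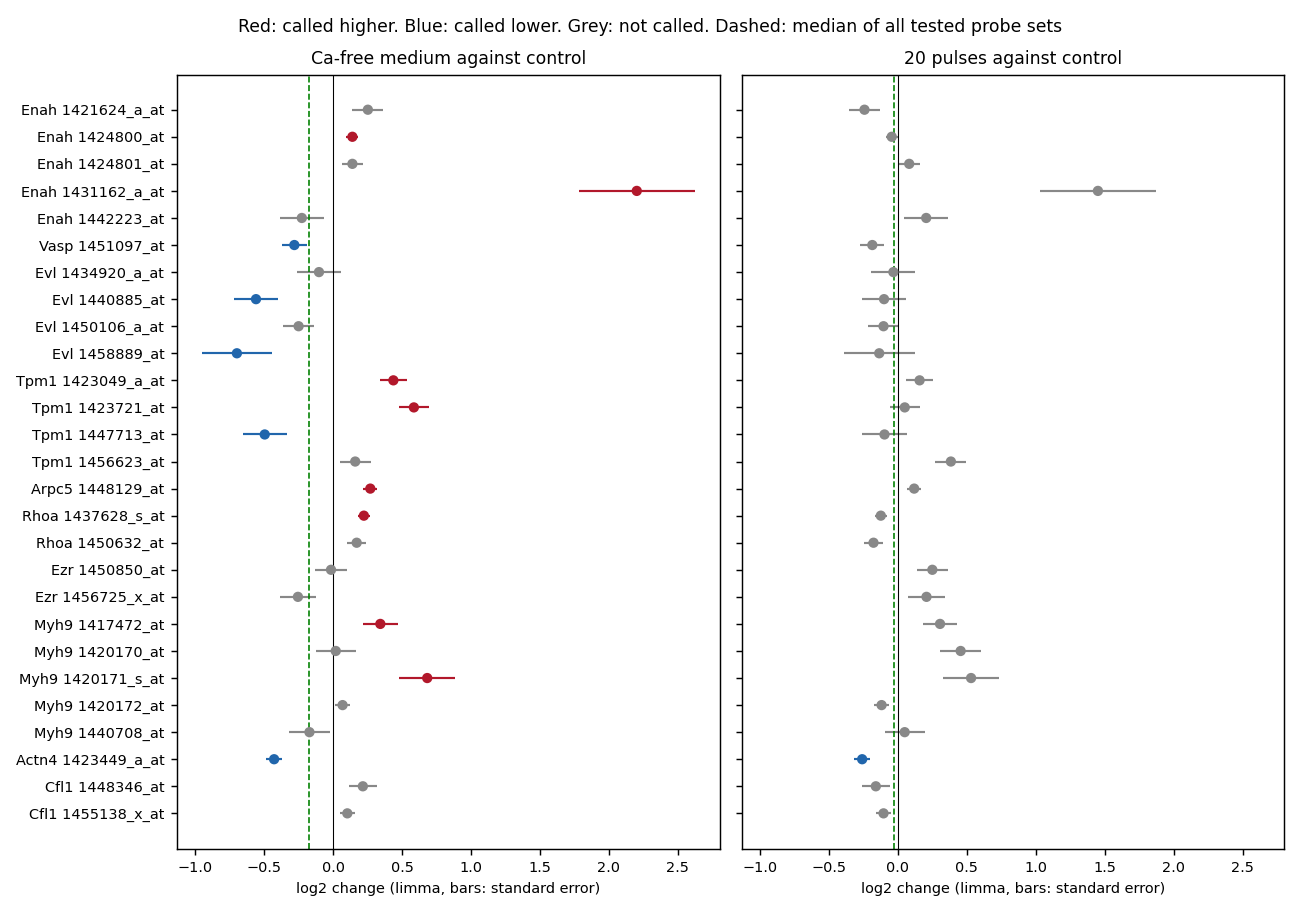
Log2 change of each of the 27 tested member probe sets (points, with the limma standard error as bars) in Ca-free medium (left) and after 20 pulses (right), both against the same 4 control arrays; colour marks a call at adjusted p under 0.05 and the dashed line is the median of all tested probe sets. On the left 8 points are called higher and 5 lower, on the right 0 higher and 1 lower, and Enah 1431162_a_at lies farthest to the right in both panels without a call after 20 pulses.

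Enah, also called Mena, is the Ena/VASP protein with the most probe sets here, 6 in all. Its probe set 1431162_a_at, whose suffix marks probes that fit several transcripts of 1 gene, had the largest change of all members. It read 231, 228, 28.0 and 34.7 in controls 1 to 4, 317, 198, 527 and 307 after 20 pulses and 643, 535, 477 and 597 in Ca-free medium. All 4 Ca-free arrays were above all 4 controls, while controls 3 and 4 were far below the other 10 arrays and the group of 20 pulses overlapped both others. The log2 change in Ca-free medium was 2.20 (SE 0.42, adjusted p = 0.00159). It was called in all 23 alternatives, at 1.18 against controls 1 and 2 only and 3.23 against controls 3 and 4 only, so the size but not the call moved with the control pair. Controls 1 and 2 stood 2.05 above controls 3 and 4 on this scale, and the Actb ratio differed between the same pairs. A difference of over 1 between the control pairs occurred in 1 of the 27 members and in 0.982% of all tested probe sets.

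The other Enah probe sets had smaller changes. The brightest, 1424800_at, read 9838, 10135, 10017 and 9518 in control and 10583, 11629.9, 10361 and 10978 in Ca-free medium, again without overlap. Its log2 change was 0.14 (SE 0.044, adjusted p = 0.0219) and turned to -0.067, not called, with hybridization control scaling. The call was lost in 9 of 23 alternatives. Among these were quantile normalization (0.053), no intensity trend (0.14), and fits without control 4 (0.12) or Ca-free sample 2 (0.11). Probe set 1421624_a_at read 1606 ± 183 in control and 1911 ± 104 in Ca-free medium (SD, n = 4 each; log2 change 0.25, adjusted p = 0.0855). 1424801_at changed by 0.14 (adjusted p = 0.16) and 1442223_at by -0.23 (adjusted p = 0.268). Neither was called, and 1455375_at, at 12.3 to 97.8, was under the minimum. The changes of these 4 tested probe sets lay between -0.23 and 0.25. Relative to 1424800_at on the same array, 1431162_a_at was 2.06 higher in Ca-free medium than in control (exact two-sided permutation test, p = 0.0286, the smallest possible, and 0.216 after adjustment over 34 such comparisons).

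**Figure D2:**
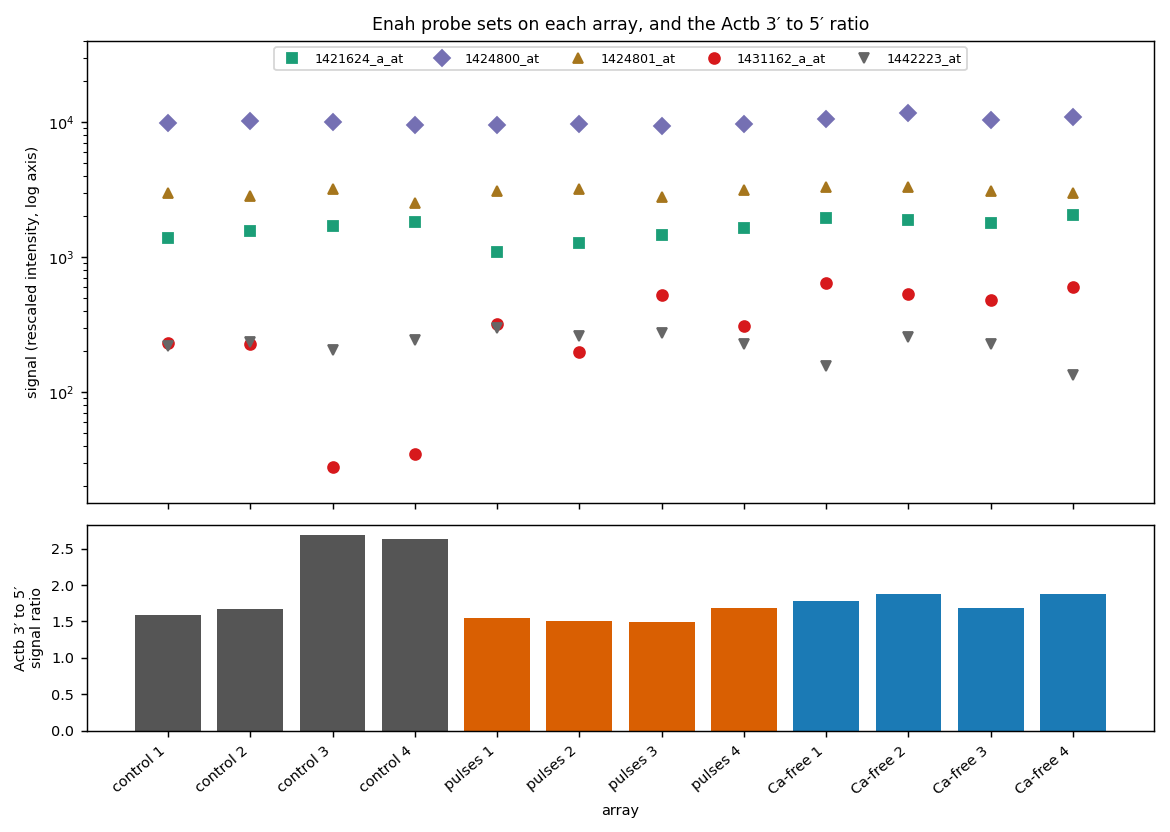
Signal of the 5 tested Enah probe sets on each of the 12 arrays (upper panel, log axis) and the Actb ratio, 3′ signal over 5′ signal, on the same arrays (lower panel, bars from 0). Probe set 1431162_a_at is at 28.0 and 34.7 in controls 3 and 4, the arrays with Actb ratios of 2.69 and 2.64, and at 477 or more in Ca-free medium, while 1424800_at stays between 9384 and 11629.9 on all arrays.

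The probe sets whose log2 signals followed Enah 1431162_a_at most closely over the 12 arrays, among 22986 annotated to 1 gene, were those of Wnk1 (Pearson r = 0.987), Naa15 (0.981), Tmem183a (0.976), Dnajc21 (0.974) and Syncrip (0.968). They share the 12 arrays and the low controls 3 and 4. Wnk1, a kinase, read 3533, 3722, 2018 and 2009 in controls 1 to 4. Syncrip, an RNA-binding protein, read 852, 758, 270.2 and 338. In all, 93 probe sets had an r over 0.9 with it. These are descriptions of likeness over few arrays.

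Vasp and Evl, the other Ena/VASP proteins, had lower signal in Ca-free medium. Vasp, measured by 1451097_at alone, read 1551, 1359.9, 1594 and 1441 in control, 1239, 1375, 1446 and 1162 after 20 pulses and 1257, 1206, 1086 and 1322 in Ca-free medium. The Ca-free arrays lay below every control, and 20 pulses overlapped both. The log2 change was -0.28 (SE 0.088, adjusted p = 0.0207), and it turned to 0.12, not called, with median scaling. The call was also lost without control 1 (-0.26), control 3 (-0.25) or Ca-free sample 3 (-0.23).

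Of 4 Evl probe sets, 2 were called lower. 1440885_at read 389.6, 324, 317 and 354 in control and 214, 200.01, 253 and 231 in Ca-free medium, with no overlap (log2 change -0.56, SE 0.16, adjusted p = 0.0125). After 20 pulses it ranged from 222 to 449, wider than either other group. The call ended with quantile normalization (-0.27) and median scaling (-0.19). The dim 1458889_at read 156 ± 28.1 in control and 89.0 ± 41.8 in Ca-free medium (SD, n = 4 each; log2 change -0.70, adjusted p = 0.0413). Its groups overlapped, and the call was lost with quantile normalization and median scaling (-0.39 in both) and without any of controls 2, 3 and 4 or any of Ca-free samples 1, 2 and 4 (-0.75 to -0.43). 1450106_a_at and 1434920_a_at, at changes of -0.25 and -0.10, were not called. Within the Ena/VASP family, then, called probe sets of Enah were higher and those of Vasp and Evl lower under the trimmed-mean scaling. Set beside probe sets of like mean signal, as described below, Enah 1431162_a_at and Vasp lay outside the 10th to 90th percentile. The called Evl probe sets and Enah 1424800_at lay within it. Under median scaling Vasp lay on the higher side and under hybridization control scaling Enah 1424800_at lay on the lower side, both without a call.

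Among 11 tested genes whose proteins bind Ena/VASP proteins, each taken by its brightest tested probe set, 3 were called higher and 1 lower in Ca-free medium. Over all 13599 genes taken this way, 12.3% were called higher and 28.8% lower, 41.1% in all. Tes (testin), a LIM protein that binds Enah, read 5055 in control and 6659 in Ca-free medium as group means (log2 change 0.40, adjusted p = 2.67e-04). Pfn1 (profilin), which delivers actin monomers to Ena/VASP proteins and formins, changed by 0.43 (adjusted p = 0.00396). Its call ended with hybridization control scaling (0.22). Of 17 other genes of barbed-end elongation and capping, 2 were called higher and 4 lower. The formin Diaph2 changed by 0.52 (adjusted p = 0.00441), while its other probe set was at 0.043, not called. The formin Fmn2, known for its part in the oocyte spindle, changed by -0.63 (adjusted p = 0.00677), which was not called with quantile normalization or median scaling (-0.31 in both).

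Arpc5, a subunit of the Arp2/3 complex that starts branched filaments, had higher signal in Ca-free medium. 1448129_at read 5493, 5493, 5579.7 and 5354 in control, 6016, 5731, 5890.1 and 6168 after 20 pulses and 6786, 6562, 6108 and 7014 in Ca-free medium. Control was lowest, with no overlap with either treated group, and the treated groups overlapped each other. The log2 change in Ca-free medium was 0.27 (SE 0.051, adjusted p = 0.00146), against 0.063, not called, with hybridization control scaling. The other probe set, 1444568_at, was at 44.98 to 140.6 and under the minimum. Of 11 other tested genes of the Arp2/3 complex and its activators, 5 were called higher and 0 lower by limma in Ca-free medium (7 and 1 at an unadjusted p under 0.05). The share of all genes at an unadjusted p under 0.05 was not counted, here or for the lists below. Nckap1, a subunit of the WAVE complex that activates Arp2/3, changed by 0.43 (adjusted p = 0.00135). Arpc5l, the close relative of Arpc5, changed by 0.35 (adjusted p = 0.00907), a call that ended with quantile normalization (0.23) and hybridization control scaling (0.15). A further Arpc5l probe set, 1441190_at, was called lower (-0.55).

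Cfl1 (cofilin), which cuts filaments and frees monomers, was not called in Ca-free medium against control by either probe set. The bright 1455138_x_at, whose suffix warns of possible cross-hybridization, read 12153 ± 599 in control, 11301 ± 467 after 20 pulses and 13064 ± 954 in Ca-free medium (SD, n = 4 each). Its log2 change against control was 0.10 (adjusted p = 0.15). 1448346_at read 817 ± 90.5, 726 ± 59.4 and 953 ± 94.8 in that order (log2 change 0.22, adjusted p = 0.0988). In both the Ca-free mean was the highest and the mean of 20 pulses the lowest, and Ca-free overlapped control. Of 14 other genes that cut filaments, bind monomers or regulate cofilin, 4 were called higher and 3 lower. Gmfb, a relative of cofilin, changed by 0.36 (adjusted p = 0.00213), not called with quantile normalization (0.22) or hybridization control scaling (0.16). Of its 4 other probe sets, 1417069_a_at and 1431686_a_at were called higher (0.99 and 0.33) and 1431687_at lower (-0.69).

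Rhoa, the small GTPase that switches on formins and, through its kinases, myosin II, was higher in Ca-free medium by 1 of 2 tested probe sets. 1437628_s_at, shared by several transcripts, read 8061, 8588, 7917 and 8066 in control, 7341, 7625, 7505 and 7455 after 20 pulses and 9885, 9402, 9313 and 9487 in Ca-free medium. The 3 groups did not overlap, with 20 pulses lowest and Ca-free highest. The log2 change in Ca-free medium was 0.22 (SE 0.042, adjusted p = 0.00153), and 0.016, not called, with hybridization control scaling. 1450632_at read 5725 ± 467, 5056 ± 351 and 6436 ± 329 in the same order of groups (SD, n = 4 each), and its change of 0.17 missed the threshold (adjusted p = 0.0556). 1443768_at, at 1.74 to 3.21 on the other arrays and 29.0 on the third array of 20 pulses, was under the minimum.

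Myh9, the heavy chain of nonmuscle myosin IIA, had 5 probe sets, of which 2 were called higher in Ca-free medium and 3 were not called. 1420171_s_at read 1313, 1436, 611 and 756 in control, 1218, 1410.1, 1339.7 and 1731 after 20 pulses and 1598, 1649, 1528 and 1519 in Ca-free medium. Controls 3 and 4 were again the lowest arrays, as for Enah 1431162_a_at, and 20 pulses overlapped both other groups. The log2 change was 0.68 (SE 0.20, adjusted p = 0.017), but 0.19 and not called against controls 1 and 2 only, and not called with quantile normalization (0.63) or without control 4 (0.57). Controls 1 and 2 lay 0.98 above controls 3 and 4 in this probe set. 1417472_at changed by 0.34 (adjusted p = 0.0424), with overlapping groups and a call lost in 12 of 23 alternatives, among them quantile normalization (0.25), hybridization control scaling (0.14) and those without any of controls 2 and 3 or any of Ca-free samples 1 and 4 (0.24 to 0.36). The brightest probe set, 1420172_at, read 7189 ± 231 in control and 7546 ± 473 in Ca-free medium (SD, n = 4 each; log2 change 0.068, adjusted p = 0.305). 1420170_at and 1440708_at, at changes of 0.019 and -0.17, were not called. Of 8 other myosin II chains and regulators, 1 was called higher and 1 lower. Myh10, the heavy chain of nonmuscle myosin IIB, changed by 0.30 (adjusted p = 0.00385), not called with hybridization control scaling (0.095). Ppp1cb, a catalytic subunit of the phosphatase that switches myosin off, changed by -0.36 (adjusted p = 0.00401) and turned to 0.046, not called, with median scaling. Its other probe sets, at 0.0057 to 0.20, were not called.

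Tpm1 (tropomyosin 1), which covers filaments and sets which myosins and cutting proteins reach them, had higher signal in Ca-free medium by 2 of 4 probe sets. 1423721_at read 864, 1101, 846 and 793 in control, 985, 774, 1047 and 921 after 20 pulses and 1318, 1425, 1331 and 1355 in Ca-free medium. Every Ca-free array was above every array of the other groups, which overlapped each other. The log2 change was 0.59 (SE 0.11, adjusted p = 0.00125), and it was called in all 23 alternatives, at 0.38 to 0.99 over the scalings. 1423049_a_at read 538, 570.2, 588 and 555 in control, 549, 586, 739 and 666 after 20 pulses and 702, 819, 764 and 812 in Ca-free medium. Here too the Ca-free arrays were above all controls (log2 change 0.44, SE 0.10, adjusted p = 0.00352), though the call ended with hybridization control scaling (0.24).

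The dim Tpm1 probe set 1447713_at moved the other way, from 184 ± 30.3 in control to 121 ± 17.8 in Ca-free medium (SD, n = 4 each; log2 change -0.50, adjusted p = 0.0235). This call ended with quantile normalization (-0.16) and median scaling (-0.16), or without any of controls 1, 2 and 3 or any of Ca-free samples 1 and 4 (-0.48 to -0.44). 1456623_at, at 408 ± 56.0, 539.6 ± 40.8 and 458 ± 52.6 in control, 20 pulses and Ca-free medium, was not called against control in either. Relative to 1423721_at on the same array, 1447713_at was lower (difference -1.08) and 1456623_at lower (-0.43) in Ca-free medium than in control (exact two-sided permutation test, p = 0.0286 each, 0.216 after adjustment). The probe sets of Tpm1 were therefore called in both directions, and no single change stands for the gene. Their differences did not pass adjustment. The lower 1447713_at lay within the 10th to 90th percentile of probe sets of like signal, whose median change was -0.39. Of 6 other tropomyosins and tropomodulins, 1 was called higher and 1 lower. Tpm3 changed by 0.21 (adjusted p = 0.0102), against 0.0061, not called, with hybridization control scaling. Its other probe sets, at 0.088 and 0.19, were not called. Tmod2, a cap of the pointed end, read 209.7 in control and 61.1 in Ca-free medium as group means and changed by -1.39 (adjusted p = 0.00404). The other Tmod2 probe set was at -0.13, not called.

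Actn4 (alpha-actinin 4), the crosslinker of filament bundles, had the smallest adjusted p of all members and was lower in both treated groups. Its single probe set, 1423449_a_at, read 8756, 9429, 10406 and 9339 in control, 7833, 8165, 7249 and 8411 after 20 pulses and 7324, 6972, 6884 and 6923 in Ca-free medium. Every treated array was below every control, and the treated groups overlapped. The log2 change in Ca-free medium was -0.43 (SE 0.059, adjusted p = 3.02e-04), -0.47 to -0.38 when any 1 array was left out, and the call ended with median scaling alone of the 23 alternatives (-0.018). Of 11 other crosslinkers, 2 were called higher and 1 lower. Sptbn1, a beta spectrin of the membrane skeleton, changed by 0.40 (adjusted p = 0.00392), not called with hybridization control scaling (0.20). Among its other probe sets, 1419256_at was called higher (0.23), 1419255_at was called lower (-0.32) and 1444089_at was not called (0.12). Flna (filamin A) changed by -0.42 (adjusted p = 0.0295), a call lost with quantile normalization (-0.25), with median scaling (-0.031), against controls 3 and 4 only (-0.34), with Ca-free samples 1 and 4 only (-0.30) and without control 1 (-0.37), control 2 (-0.41), control 3 (-0.41), Ca-free sample 1 (-0.39) or Ca-free sample 3 (-0.31).

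Ezr (ezrin), which ties filaments to the membrane of the outer cells' apical surface, was not called in Ca-free medium against control. 1450850_at read 2035, 2141, 2495 and 2580.4 in control and 2606, 2050.1, 1855 and 2706 in Ca-free medium, groups that overlapped widely (log2 change -0.016, adjusted p = 0.921). Of the alternatives run, median scaling alone gave a call, with 0.39. 1456725_x_at changed by -0.26 (adjusted p = 0.128). Of 6 related genes and partners, 0 were called higher and 2 lower by limma (0 and 3 at an unadjusted p under 0.05). Msn (moesin), the relative of ezrin, read 2132 in control and 1364 in Ca-free medium as group means (log2 change -0.65, adjusted p = 7.83e-04; -0.25, not called, with median scaling). Podxl (podocalyxin), an apical membrane protein bound by ezrin's partners, changed by -0.93 (adjusted p = 0.00363) and was called in all alternatives run. The other Podxl probe set was at 0.088, not called. Of the actins, the substrate of all these proteins, Actb changed by 0.18 (adjusted p = 0.0664) and Actg1 by 0.11 (adjusted p = 0.258), neither called. Acta2, smooth muscle actin and one of the muscle markers above, changed by -0.66 (adjusted p = 0.0014; -0.26, not called, with median scaling).

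**Figure D3:**
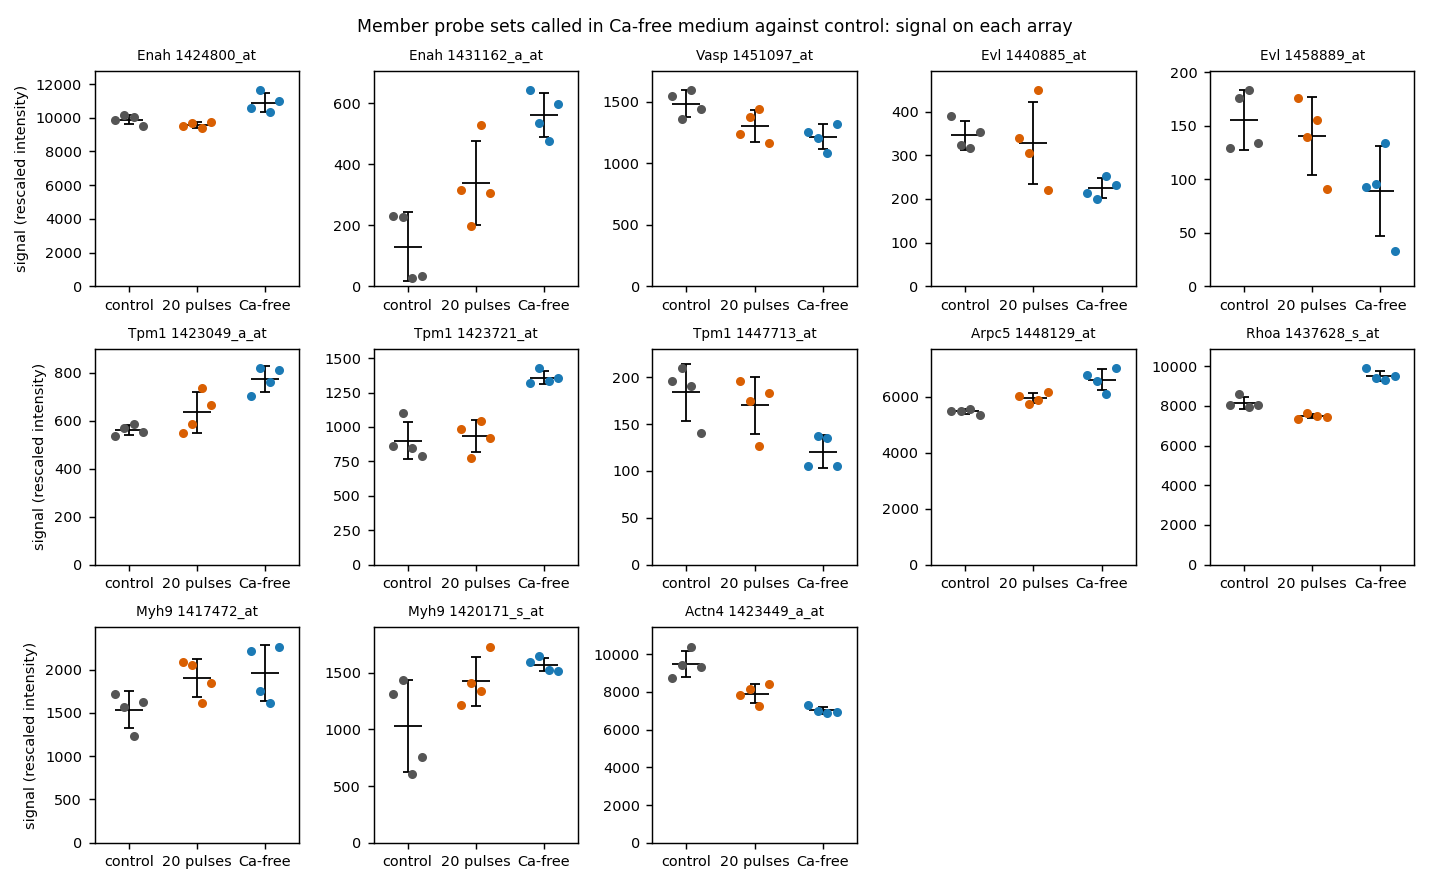
Signal on each array (points; rescaled intensity, axes from 0) of the 13 member probe sets called in Ca-free medium against control, with the group mean and SD (n = 4) as black bars. Ca-free arrays lie above all controls for both Enah, 2 of 3 Tpm1, the Arpc5 and Rhoa probe sets and Myh9 1420171_s_at, and below them for Vasp, Evl 1440885_at, Tpm1 1447713_at and Actn4.

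The other actin genes as a whole numbered 117, of which 100 were tested. In Ca-free medium against control, 23 were called higher and 17 lower, beside 12.3% higher and 28.8% lower over all genes. Their median change was 0.080 and that of all genes -0.13. The other actin genes were not set beside genes of like mean signal, with which the change moved, as described below. With quantile normalization 13 were called higher and 11 lower, median scaling gave 66 and 2, and hybridization controls gave 3 and 38. After 20 pulses 1 was called higher and 0 lower by limma against control (19 and 3 at an unadjusted p under 0.05), beside calls in 0.75% and 0.331% of all genes.

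The members' calls depended on the scaling in the same way. In Ca-free medium against control, the calls common to the 4 scalings were 2 member probe sets higher, Enah 1431162_a_at (2.01 to 2.56) and Tpm1 1423721_at (0.38 to 0.99), and 0 lower. Over all tested probe sets, 2.75% were called higher under all 4 and 4.5% lower, 7.26% in all. Level also moved with the change. Divided by mean signal into 10 equal bins, the tested probe sets had median changes from -0.39 in bin 2 to 0.12 in bin 10, the brightest, where 8 members lay. Set beside probe sets of their own bin, 4 members were above the 90th percentile (Enah 1431162_a_at, Tpm1 1423049_a_at and 1423721_at, Myh9 1420171_s_at) and 2 were below the 10th (Vasp and Actn4), with 21 in between. Among those in between were the called increases of Enah 1424800_at, Arpc5, Rhoa 1437628_s_at and Myh9 1417472_at. So were the called decreases of Evl 1440885_at, Evl 1458889_at and Tpm1 1447713_at.

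**Figure D4:**
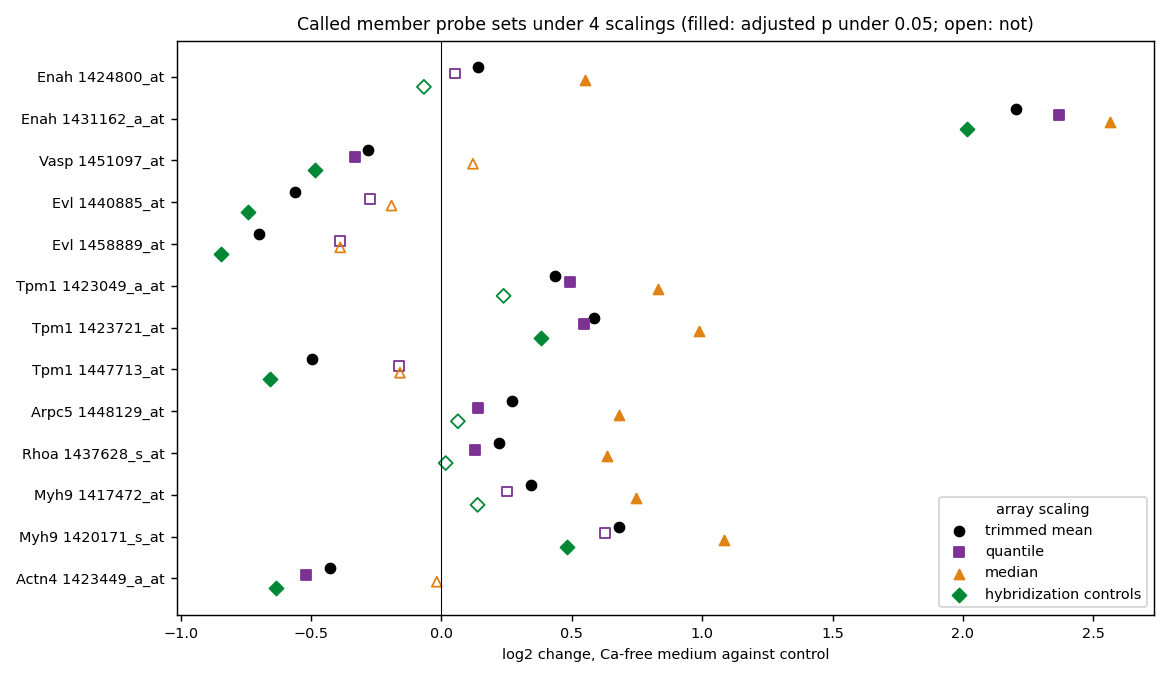
Log2 change in Ca-free medium against control of the 13 called member probe sets under 4 scalings of the arrays (symbols), filled where the adjusted p was under 0.05 and open where not. Median scaling moves all points to the right and hybridization control scaling moves them to the left of the trimmed mean; Enah 1431162_a_at and Tpm1 1423721_at alone among the 13 are filled under all 4, while Enah 1424800_at and Vasp change side.

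**Figure D5:**
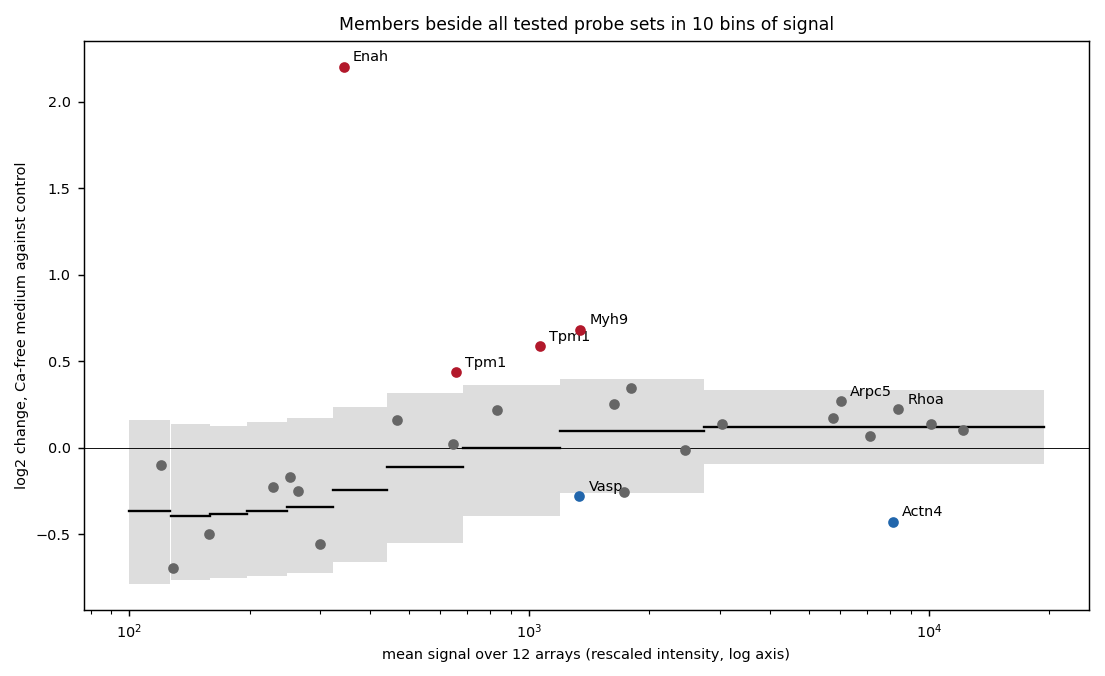
Log2 change in Ca-free medium against control (vertical) over mean signal of the 12 arrays (horizontal, log axis) for the 27 tested member probe sets (points), on grey boxes from the 10th to the 90th percentile of all tested probe sets in each of 10 equal bins of signal, with the median as a black line. Red points (4) lie above the box of their bin, blue points (Vasp and Actn4) below it, and grey points within it.

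After 20 pulses, Actn4 was the single actin regulator that passed the test against control. Of 27 tested probe sets, 0 were called higher and 1 lower by limma (7 and 5 at an unadjusted p under 0.05), 3.7% beside 1.48% of all probe sets (1.1% higher and 0.374% lower). The share of all probe sets at an unadjusted p under 0.05 was not counted, so the 7 and 5 have no background beside them. Actn4 changed by -0.26 (SE 0.059, adjusted p = 0.0432), with all 4 arrays below all controls. The call was kept in 6 of 21 alternatives and lost without any of controls 2, 3 and 4 or any of pulses samples 1, 2, 3 and 4 (-0.29 to -0.21). With the replicate number as a block, its adjusted p was 0.0875. No member kept a call through the 4 scalings (1.02% of all probe sets did, 0.935% higher and 0.0863% lower). Both treatments were compared with the same 4 controls, so the lower Actn4 signal in each is not a separate observation.

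The largest change after 20 pulses was again in Enah 1431162_a_at, at 1.45 (SE 0.42), which missed the threshold (adjusted p = 0.102). Of its 4 arrays, the second, at 198, lay below controls 1 and 2. The change was called against controls 3 and 4 only (2.47), without control 1 (1.79) and with hybridization control scaling (1.61). Against controls 1 and 2 only it was 0.43 (adjusted p = 0.493). Groups did not overlap in 6 of the 27 members, 3 above control and 3 below, beside 5.85% and 5.11% of all probe sets. Above control lay Tpm1 1456623_at (0.38, adjusted p = 0.104), Ezr 1450850_at (0.25, adjusted p = 0.296) and Arpc5 1448129_at (0.12, adjusted p = 0.27). Below control lay Actn4, Rhoa 1437628_s_at (-0.12, adjusted p = 0.16) and Myh9 1420172_at (-0.12, adjusted p = 0.281). All other Myh9 probe sets were higher, overlapping control and not called. 1420171_s_at changed by 0.53 (adjusted p = 0.213), 1420170_at by 0.46 (adjusted p = 0.136), 1417472_at by 0.31 (adjusted p = 0.249) and 1440708_at by 0.049. With hybridization control scaling the first 3 were called (0.69, 0.61 and 0.47). Beside probe sets of like signal, 5 members lay above the 90th percentile, these 3 among them, 4 below the 10th and 18 in between. Of the other actin genes, Ssh1 (slingshot), the phosphatase that activates cofilin, was the call, from 830.3 in control to 1242 after 20 pulses as group means (log2 change 0.56, adjusted p = 0.00503). It was called in all 21 alternatives. Its other probe sets were at 0.40 and -0.48, neither called.

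Ca-free medium against 20 pulses compared the treated groups directly. It called 10 member probe sets higher and 4 lower, 51.9% beside 32.6% of all probe sets (9.22% higher and 23.4% lower). Level moved with the change here too, and bin 10, where 8 members lay, had a median of 0.17. Within their own bins, 7 members were above the 90th percentile, 3 below the 10th and 17 in between. In between were the called increases of Arpc5, Enah 1424800_at, Myh9 1420172_at and Cfl1 1455138_x_at. The called decreases of Evl 1440885_at and Myh9 1420170_at lay there as well. Ca-free arrays lay above all arrays of 20 pulses in 8 members and below in 1, beside 9.29% and 22.2% of all. Both Rhoa probe sets were higher in Ca-free medium, 1437628_s_at by 0.35 (SE 0.042, adjusted p = 4.59e-04) and 1450632_at by 0.35 (adjusted p = 0.00293). Both Cfl1 probe sets were higher too, 1448346_at by 0.38 (adjusted p = 0.0127) and 1455138_x_at by 0.21 (adjusted p = 0.0128). For Enah the calls were 1421624_a_at (0.49, adjusted p = 0.00601) and 1424800_at (0.18, adjusted p = 0.00761), while 1431162_a_at at 0.75 was not called (adjusted p = 0.18). Tpm1 1423721_at was higher by 0.54 (adjusted p = 0.0033) and 1423049_a_at by 0.28 (adjusted p = 0.0391). The others higher were Arpc5 (0.15) and Myh9 1420172_at (0.19). The lower calls were Ezr 1456725_x_at (-0.46, adjusted p = 0.016), Evl 1440885_at (-0.46), Myh9 1420170_at (-0.44) and Actn4 (-0.17). The calls of Arpc5, Evl, Myh9 1420170_at, Actn4 and Tpm1 1423049_a_at were lost when single arrays were left out. Arpc5 was not called without any of pulses samples 1, 2 and 3 or any of Ca-free samples 1, 2 and 4 (0.12 to 0.16), and Evl without any of pulses samples 1, 2 and 3 or any of Ca-free samples 1, 2 and 4 (-0.48 to -0.31). Myh9 1420170_at was not called without any of pulses samples 1, 2 and 3 or any of Ca-free samples 2, 3 and 4 (-0.46 to -0.37), and Actn4 without any of pulses samples 1, 2 and 4 or any of Ca-free samples 2, 3 and 4 (-0.17 to -0.14). Tpm1 1423049_a_at was not called without any of pulses samples 1 and 2 or any of Ca-free samples 2, 3 and 4 (0.22 to 0.28), and Ezr without pulses sample 2 (-0.36).

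In this comparison 0 of the 27 members kept a call of 1 direction through the 4 scalings, beside 2.64% of all probe sets (0.334% higher and 2.31% lower). With hybridization control scaling, which moved the median of all probe sets from -0.17 to -0.49, 18 members were called lower and the higher calls ended. Of the calls named above, both Rhoa probe sets then lay at -0.022 and -0.020. Of the 14 calls, 8 changed sign under at least 1 other scaling: both Rhoa probe sets, Arpc5, Actn4, Enah 1424800_at, Tpm1 1423049_a_at, Cfl1 1455138_x_at and Myh9 1420172_at. For these the order of Ca-free medium and 20 pulses rests on the scaling. The other 6 kept their sign and lost the call under at least 1. With hybridization control scaling Enah 1421624_a_at was at 0.13, Tpm1 1423721_at at 0.18 and Cfl1 1448346_at at 0.019. With median scaling Ezr 1456725_x_at was at -0.093, Evl 1440885_at at -0.12 and Myh9 1420170_at at -0.077. Quantile normalization left Cfl1 1455138_x_at at 0.0078, Myh9 1420172_at at 0.017 and Rhoa 1450632_at at 0.18, not called. The Actb ratio was also higher in Ca-free medium than after 20 pulses (log2 difference 0.22, exact two-sided permutation test, p = 0.0286), and its part in these calls was not tested. Of the 100 other actin genes tested, 23 were called higher and 21 lower in Ca-free medium, beside 11.2% and 21% of all genes.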

How the data were processed

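The deposited table holds microarray intensity of 45037 probe sets and 64 array controls, made by the authors with MAS5 per the submitters' processing notes, whose version is not given there. The intensity is linear, and each deposited array has a 2% trimmed mean of 150.001. The labels name a PicoPure kit for the RNA and a small-sample biotin labelling assay. Arrays were rescaled to a trimmed mean of 500, 32 was added and log2 taken. Probe sets with a mean of at least 100 (27808) were tested with limma 3.58.1 in R 4.3.3 (lmFit, eBayes with intensity trend, all 12 arrays), with Benjamini-Hochberg adjustment over all of them. The number of arrays limits the precision.

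A platform table paired 34945 probe sets with 1 gene, 932 with several and 9160 with none, and 34741 symbols were matched through gene identifiers to RefSeq (GRCm38.p6). All member probe sets are named. From each of 10 lists of other actin genes, the 2 genes with the smallest p among those called against control are named, and the 5 probe sets most like the Enah probe set with the smallest p. One of these lists is not reported here. The members, lists, tests and alternatives were chosen with earlier results of these data known.

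Replicate numbers are the labels' own. Residuals of arrays with the same number correlated little (mean r 0.0156, from -0.058 to 0.10, against -0.0052 for other numbers), so numbers were not taken to pair arrays, and a block was an alternative. The other alternatives were quantile, median and hybridization control scaling, added values of 1 and 100, no filter, a minimum of 300, no trend, array weights, fits of only the 8 arrays compared, each array left out in turn, and pairs of control or Ca-free arrays. The procedure was tested on simulated data. Detection calls and raw images were not used here.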

Additional observations from a re-analysis of the deposited data

Results flagged for a closer look

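Of 90 groups of 4 arrays of the member probe sets, 4 had an array farther from the others than Dixon's 95% limit, and chance gives about 1 in 20. Evl 1450106_a_at read 242 in control 1 and 299 to 308 in the other controls. Rhoa 1443768_at, under the signal minimum, read 29.0 on the third array of 20 pulses and 2.38 to 2.60 on the others of its group. Rhoa 1450632_at read 5582 on that array and 4856 to 4903 on the others. Cfl1 1448346_at read 811 in Ca-free array 2 and 989 to 1014 in the others.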

How the results depend on the processing

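Array scaling moved the counts of calls. The members called were 8 higher and 5 lower in Ca-free medium against control, 0 and 1 after 20 pulses, and 10 and 4 in Ca-free medium against 20 pulses. With quantile normalization they were 5 higher and 2 lower, 1 higher and 0 lower, and 5 higher and 2 lower. With median scaling they were 17 higher and 0 lower, 0 higher and 0 lower, and 15 higher and 0 lower, and with hybridization control scaling 3 higher and 8 lower, 6 higher and 0 lower, and 0 higher and 18 lower. Counts of 0 are those of limma. The other actin genes, 23 and 17, 1 and 0, and 23 and 21 in that order, went to 13 higher and 11 lower, 3 higher and 0 lower, and 3 higher and 14 lower with quantile normalization. They went to 66 higher and 2 lower, 3 higher and 0 lower, and 56 higher and 1 lower with median scaling, and to 3 higher and 38 lower, 22 higher and 0 lower, and 0 higher and 75 lower with hybridization control scaling.

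Direction reversed in these log2 changes, each called with the trimmed mean, under the scaling named or in both. With quantile normalization, Ca-free medium against 20 pulses was -0.013 for Enah 1424800_at and -0.031 for Arpc5. With median scaling, against control, Vasp was at 0.12, Ezr 1450850_at at 0.39 and Ppp1cb at 0.046, and against 20 pulses Vasp was at 0.27 and Actn4 at 0.21. With hybridization control scaling, Enah 1424800_at was at -0.067 against control. Against 20 pulses Enah 1424800_at was then at -0.18, Enah 1424801_at at -0.31, Tpm1 1423049_a_at at -0.074 and Arpc5 at -0.22. Rhoa 1437628_s_at was at -0.022 and 1450632_at at -0.020, Myh9 1417472_at at -0.33 and 1420172_at at -0.18, and Cfl1 1455138_x_at at -0.16. Of the member changes not called with the trimmed mean, 12 in Ca-free medium against control, 9 after 20 pulses and 9 in Ca-free medium against 20 pulses changed sign under at least 1 scaling. The cause was not tested.

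The single lower member after 20 pulses, Actn4, became 0 without a filter, without the intensity trend, with only the 8 arrays compared, against controls 1 and 2 only, and with the replicate block. Other actin genes higher after 20 pulses were 3 with 100 added, 4 at a minimum of 300, 4 with array weights, 2 with the replicate block, 2 against controls 1 and 2 and 6 against controls 3 and 4, where 3 members were higher. At a minimum of 300, where fewer probe sets are tested, 2 members and 10 other genes were lower in Ca-free medium against control. Members lower there were 3 against controls 1 and 2 (other genes higher, 13) and 1 against controls 3 and 4. With Ca-free arrays 2 and 3 only, members were 5 higher and 2 lower against control and 6 higher and 2 lower against 20 pulses, with 9 other genes higher. With Ca-free arrays 1 and 4 only, 2 members were lower against 20 pulses. Members lower against 20 pulses were 1 without a filter, and without the intensity trend 6 members and 12 other genes were higher.

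With 1 array left out at a time, members ranged from 6 to 9 higher and 2 to 4 lower in Ca-free medium against control, 0 to 2 and 0 to 1 after 20 pulses, and 8 to 10 and 0 to 4 in Ca-free medium against 20 pulses. Other actin genes ranged from 17 to 25 and 13 to 18, 1 to 3 and 0 to 0, and 14 to 22 and 16 to 21. The number of arrays, 4 a group, limits all comparisons.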
